A study of Mus musculus with 73 samples.

Results

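The NT5E PDGFRa doublet gate filled 1 plate of sorted wells from the jejunum of 1 mouse, and the EPCAM PDGFRa doublet gate of the same mouse and sort filled 3 plates. Wells belonged to a gate by the plate title at the end of their column name, and were kept with 400 to 8000 unique molecular identifiers (UMIs, each standing for 1 captured transcript) and at least 250 genes. This left 126 wells of the NT5E plate and 441 wells of the EPCAM plates, 567 in all, of 2347 wells past the same filters in the labelled plates and 12698 wells in the table. The mouse was a male C57BL/6 of 3 months that carried no transgene and received no agent by its labels. By their plate titles, both gates took events positive for PDGFRa as well as for NT5E or EPCAM. A well could then hold an epithelial cell together with a stromal cell. The study's methods describe the sorted cells as PDGFRa positive and EPCAM negative, and do not describe these doublet gates. The antibody used for NT5E is not given in the sources used here. PDGFRa singlets of the same mouse, from 2 plates with 153 kept wells, served as a reference. A bulk epithelium experiment, in which male Lgr5(GFP-ires-DTR/+) mice of 4 months were collected 48 h after diphtheria toxin (DT) at 50 µg/kg or after saline (mock), 4 mice each, gave a further readout of the same genes. There the toxin receptor sat in the Lgr5 locus of the mice of both groups, so all Lgr5-expressing cells, crypt stem cells included, carried it.

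NT5E, also known as CD73, is an enzyme on the cell surface that turns extracellular AMP into adenosine. ADA converts adenosine into inosine, and SLC28A2 is a sodium-coupled transporter that brings purine nucleosides into the cell. Enterocytes are born in the crypt and climb the villus before they are shed, and the genes of these proteins are known as markers of enterocytes near the villus tip, whereas EPCAM, an adhesion protein, covers the whole epithelium. PDGFRa, a receptor for platelet-derived growth factors, marks stromal cells that include the telocytes beneath the epithelium.

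The plates differed in depth and in what they held. The filters kept 32.9% of the wells of the NT5E plate and 7.18%, 79.2% and 28.9% of those of EPCAM plates 1, 3 and 5. Over all wells, kept or not, the medians were 303 UMIs in the NT5E plate and 56, 1438 and 206.5 in these EPCAM plates. The NT5E plate (plate 2 of its gate) gave 378395 UMIs in kept wells, with a median of 2896 UMIs per well, against medians of 948, 1681 and 2121 in EPCAM plates 1, 3 and 5, which summed to 26677, 611978 and 261707 UMIs. The plates used the same well barcodes, so the NT5E plate shared 10, 99 and 45 barcodes of kept wells with these plates. The plate labelled EPCAM 1 went against its label. *Epcam* (chr17:87635979-87651129) had 4 UMIs there, all in 1 of 26 wells, whereas *Dcn*, a collagen-binding proteoglycan of fibroblasts, had 415 UMIs, and mitochondrial transcripts made up 0.881% of its UMIs against 5.16% to 7.31% in the other plates of the comparison. Tests of single genes are therefore given with and without the plate labelled EPCAM 1, and gene groups without it, with their medians over all plates beside them. Going the other way, 92 of the 115 kept wells of the PDGFRa singlet plate labelled 2 were epithelial by the markers described next.

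Most wells of the NT5E plate held either epithelial or mesenchymal transcripts, and 1 of 126 held both. A well was counted as epithelial with at least 3 UMIs of *Epcam*, *Krt8*, *Krt18*, *Krt19*, *Vil1* and *Lgals4*, genes of epithelial adhesion, the keratin skeleton and the brush border, and as mesenchymal with at least 3 UMIs of *Pdgfra*, *Dcn*, *Lum*, *Col1a1*, *Col1a2*, *Col3a1* and *Sparc*, genes of a growth factor receptor and the fibroblast matrix. In the NT5E plate 97 wells were epithelial without reaching 3 mesenchymal UMIs (77.0%, 95% exact binomial interval 68.7 to 84.01), 26 were mesenchymal without reaching 3 epithelial UMIs (20.6%, 13.9 to 28.8) and 2 were neither. The single well with both (0.794%, 0.0201 to 4.34) had 718 UMIs, of which 8 were epithelial and 3 mesenchymal markers. EPCAM plate 5 resembled this split, with 83 epithelial, 24 mesenchymal and 2 double wells of 111. EPCAM plate 3 held 277 epithelial and 11 mesenchymal wells and 0 double wells of 304, which allows a share of up to 0.987%. The plate labelled EPCAM 1 held 24 mesenchymal and 2 double wells of 26. Requiring 1 UMI instead of 3 gave 21 double wells in the NT5E plate (16.7%), 4, 7 and 15 in EPCAM plates 1, 3 and 5, and requiring 5 gave 0 in all 4 plates. Intervals here and below cover counting error only.

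**Figure D1:**
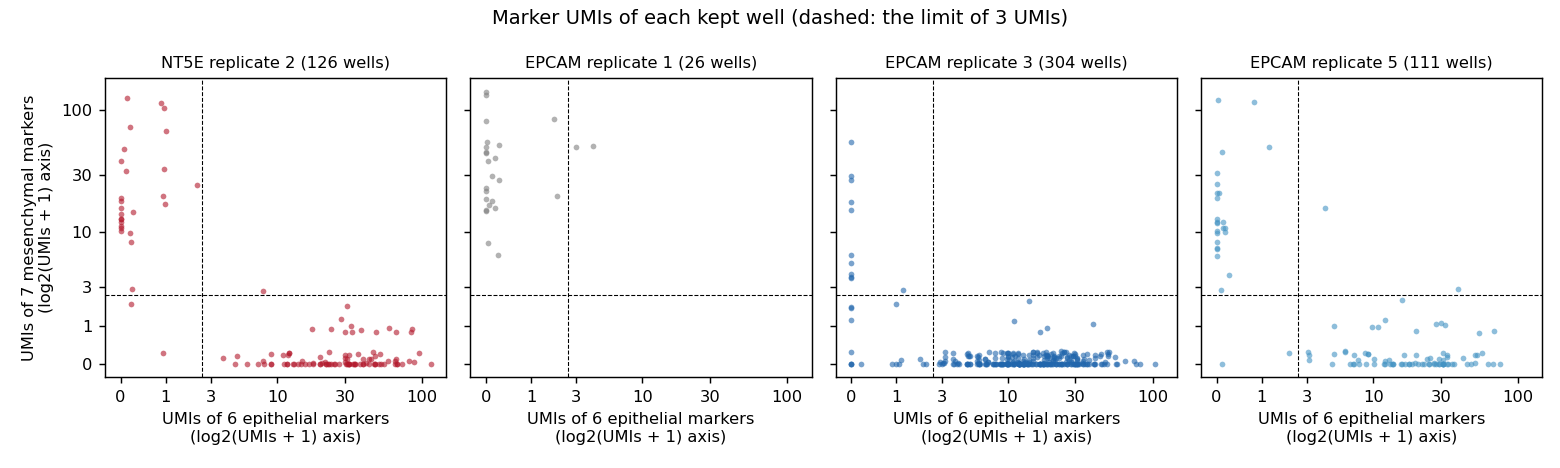
Each point is a kept well, with its UMIs of the 6 epithelial markers against those of the 7 mesenchymal markers, in one panel per plate on log2(UMIs + 1) axes, with points jittered and dashed lines at the limit of 3 UMIs. Wells of the NT5E plate lie along one axis or the other, 97 with epithelial and 26 with mesenchymal markers, and 1 well passes 3 UMIs of both.

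The epithelial wells of the NT5E plate were its deeper wells, with a median of 3423 UMIs against 953 in its mesenchymal wells, and the same held in EPCAM plate 3 (1787 and 683) and plate 5 (2632 and 743). *Epcam* itself was at 11.1 UMIs per 10000 in the NT5E plate, in 88 of 126 wells, and at 1.499, 12.9 and 9.59 in EPCAM plates 1, 3 and 5, so the plate lay inside their range. *Pdgfra* (chr5:75152292-75198215) had 45 UMIs in 21 wells of the NT5E plate, and 14, 2 and 26 UMIs in 7, 2 and 15 wells of EPCAM plates 1, 3 and 5. Of the 45 *Pdgfra* UMIs in the NT5E plate, 42 came from these mesenchymal wells.

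*Nt5e*, the gene of the sorted surface protein, had the lowest counts of the villus tip trio in the plate sorted for it, as it also had in EPCAM plates 3 and 5. *Nt5e* (chr9:88327197-88372092, plus strand) had 3 UMIs in the NT5E plate, all in 1 of 126 wells (0.794% of wells, 0.0201 to 4.34). EPCAM plate 3 had 51 *Nt5e* UMIs in 26 of 304 wells (8.55%), EPCAM plate 5 had 6 in 3 of 111 wells (2.70%), and the plate labelled EPCAM 1 had 0 in 26 wells, which allows up to 11.5% of wells. Per 10000 UMIs these counts of *Nt5e* were 0.0793 in the NT5E plate (exact Poisson interval 0.0164 to 0.232), 0.833 (0.621 to 1.10) in EPCAM plate 3 and 0.229 (0.0841 to 0.499) in plate 5. The ratio of the NT5E plate to EPCAM plate 3 was 0.0951 (0.0190 to 0.294), whereas its interval against plate 5 (0.346, 0.0560 to 1.62) included 1. With each well thinned to 400 UMIs, *Nt5e* was expected in 0.359% of wells of the NT5E plate, 3.93% of EPCAM plate 3 and 1.05% of plate 5. The PDGFRa singlet plates 2 and 3 held 10 and 25 *Nt5e* UMIs, in 5 of 115 and 3 of 38 wells.

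The 1 well of the NT5E plate with *Nt5e* had an enterocyte profile. Among its 2199 UMIs were 3 of *Nt5e*, 32 of *Ada*, 10 of *Slc28a2*, 150 of *Apoa4* (an apolipoprotein of fat-absorbing enterocytes), 5 of *Epcam* and 0 of the 7 mesenchymal markers.

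*Ada* and *Slc28a2* were counted often enough to place the plates. *Ada* (chr2:163726584-163750239, minus strand) had 157 UMIs in 23 of 126 wells of the NT5E plate, 1088 in 122 of 304 wells of EPCAM plate 3, 217 in 18 of 111 wells of plate 5 and 0 in the plate labelled EPCAM 1. Per 10000 UMIs *Ada* stood at 4.15 (3.53 to 4.85), 17.8 (16.7 to 18.9) and 8.29 (7.23 to 9.47) in the first 3 of these plates. The NT5E plate was thus at 0.233 times EPCAM plate 3 (0.196 to 0.276) and at 0.5004 times plate 5 (0.405 to 0.617) in *Ada*. *Slc28a2* (chr2:122426477-122461137, plus strand) had 48 UMIs in 11 wells of the NT5E plate, 288 in 81 wells of EPCAM plate 3, 47 in 12 wells of plate 5 and 0 in the plate labelled EPCAM 1, or 1.27, 4.71 and 1.80 per 10000 UMIs in the plates with a count. Its ratio was 0.270 (0.194 to 0.367) against plate 3 and 0.706 (0.463 to 1.08) against plate 5. EPCAM plates 3 and 5 also differed from each other, in point value by less than the NT5E plate from plate 3. For *Slc28a2* and *Nt5e* the intervals of these comparisons overlapped. The plate labelled EPCAM 1 had a count of 0 for the whole trio. Plate 5 was at 0.466 times plate 3 (0.401 to 0.540) in *Ada*, at 0.382 (0.274 to 0.521) in *Slc28a2* and at 0.275 (0.0965 to 0.641) in *Nt5e*. The UMIs of a gene cluster in wells, so these counting intervals are narrower than the spread between plates.

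**Figure D2:**
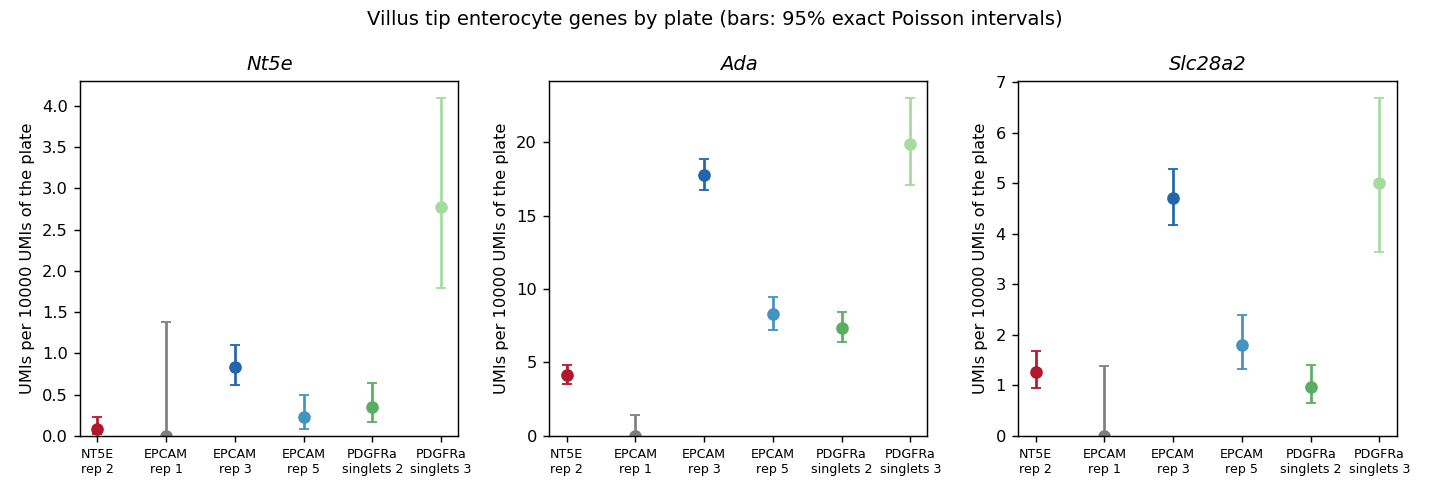
UMIs per 10000 of *Nt5e*, *Ada* and *Slc28a2* in the 4 plates and in the PDGFRa singlet plates, with exact Poisson intervals of 95% that cover counting error only. For all 3 genes the NT5E plate lies below EPCAM plates 3 and 5, and the plate labelled EPCAM 1 has a count of 0.

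Against the spread between plates, none of the trio passed the test. All plates came from 1 mouse, so p-values cover the spread between plates alone and say nothing of other mice, and the lone NT5E plate was assumed to vary like the EPCAM plates. In edgeR's quasi-likelihood test on UMIs summed per plate, the log2 difference of the NT5E plate from the EPCAM plates was -2.45 ± 1.74 (SE) for *Nt5e*, -1.12 ± 1.77 for *Ada* and -0.86 ± 1.67 for *Slc28a2*, each at an adjusted p of 1.0. Without the plate labelled EPCAM 1 the differences were -2.81 ± 1.06, -1.69 ± 0.76 and -1.40 ± 0.84 in the same test, each at an adjusted p of 0.9995. Without EPCAM plate 3, *Slc28a2* turned to 0.32.

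The wells that carried the trio were few in the NT5E plate and in EPCAM plate 5 alike. At least 1 UMI of *Nt5e*, *Ada* or *Slc28a2* was found in 24 of 126 wells of the NT5E plate (19.0%, 12.6 to 27.0), in 22 of 111 wells of EPCAM plate 5 (19.8%, 12.9 to 28.5), in 132 of 304 wells of plate 3 (43.4%, 37.8 to 49.2) in 20 of 115 wells of PDGFRa singlet plate 2 (17.4%, 10.96 to 25.6) and in 8 of 38 wells of singlet plate 3 (21.1%, 9.55 to 37.3), where the trio summed to 27.6 UMIs per 10000 against 5.50 in the NT5E plate and 23.3 in EPCAM plate 3. With a minimum of 5 UMIs the shares were 9.52%, 10.8% and 25.3% in the NT5E plate and EPCAM plates 5 and 3. The best well of the NT5E plate held 45 trio UMIs, and those of EPCAM plates 5 and 3 held 59 and 67. Wells with all 3 genes numbered 1, 3 and 22. As a gauge of free RNA, although stromal cells can express *Nt5e*, mesenchymal wells gave a UMI of the trio in 1 of 26 wells of the NT5E plate (3.85%, at a median of 953 UMIs) and in 2 of 24 wells of EPCAM plate 5 (8.33%, at 743). It was found in 0 of 24 such wells of the plate labelled EPCAM 1 and 0 of 11 of EPCAM plate 3. PDGFRa singlet plates 2 and 3 had it in 0 of 20 and 0 of 12.

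For *Ada* and *Slc28a2* the bases just before the RefSeq start on GRCm38 are shown, because these genes carried most UMIs of the trio and stood in the same order across the 4 plates. Capitals mark a GC box.

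Ada, chr2:163750240-163750389, minus strand: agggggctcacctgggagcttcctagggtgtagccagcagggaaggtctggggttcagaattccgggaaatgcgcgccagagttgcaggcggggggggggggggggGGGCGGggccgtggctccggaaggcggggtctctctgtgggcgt

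Slc28a2, chr2:122426285-122426434, plus strand: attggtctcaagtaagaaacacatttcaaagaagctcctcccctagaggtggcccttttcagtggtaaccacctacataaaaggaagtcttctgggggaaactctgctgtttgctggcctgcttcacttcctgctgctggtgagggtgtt

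The *Ada* stretch was 70.7% G or C and that of *Slc28a2* 48.7%. In the 250 bases before each start, both strands were searched for an AP-1 site (TGANTCA, in 6.75% of 32851 RefSeq promoters), a cAMP response element (TGACGTCA, 1.55%), a GC box (GGGCGG, 32.7%), a CACCC element (CCACACCC, 3.20%) and a TATA box (TATAAA, 12.4%). The only match was the GC box of *Ada*, 44 to 39 bases before the start. A match describes the letters and not a bound site.

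Over all genes, 0 of 6456 tested passed an adjusted p of 0.05 in edgeR in either direction (0.0% higher and 0.0% lower in the NT5E plate). At an unadjusted p under 0.05 stood 9 genes higher (0.139%) and 20 lower (0.31%) in the NT5E plate, the smallest adjusted p was 0.0647, and DESeq2 called 0, with 30 at an unadjusted p under 0.05. Without the plate labelled EPCAM 1, edgeR again called 0 of 6286 genes, with 15 higher (0.239%) and 38 lower (0.605%) at an unadjusted p under 0.05, and DESeq2 called 0, with 22. Over the epithelial and double wells of the same plates, edgeR called 0 of 5829 genes, with 59 at an unadjusted p under 0.05 and 20 in DESeq2. The median log2 difference of all genes tested was 0.15 with all plates under TMM scaling and 0.04 under DESeq2's size factors, a shift of the whole table that values of single genes should be read against. It was 0.01 without the plate labelled EPCAM 1.

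EPCAM plate 3 stood apart from the other plates in its epithelial wells. With the epithelial wells of each plate thinned to 232738 UMIs, 1442 genes outside the mitochondrial genome had at least 100 UMIs over the NT5E plate, EPCAM plates 3 and 5 and PDGFRa singlet plate 2. Of these, 15.7% were more than 2 times apart between the NT5E plate and EPCAM plate 3, but 3.54% between the NT5E plate and EPCAM plate 5 and 4.58% between the NT5E plate and PDGFRa singlet plate 2. EPCAM plates 3 and 5, sorted by the same gate, were apart in 24.5% of these genes, more than either was from the NT5E plate. Ribosomal protein genes made up 3.65% of the UMIs of EPCAM plate 3, against 7.02% in the NT5E plate and 9.14% in EPCAM plate 5, and the nuclear RNA *Malat1* was at 30.7 per 10000 there against 7.69 and 7.03. The share of wells kept was 79.2% in EPCAM plate 3, against 32.9% in the NT5E plate and 28.9% in EPCAM plate 5. These values moved with the difference of EPCAM plate 3, and their part in it was not tested.

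**Figure D3:**
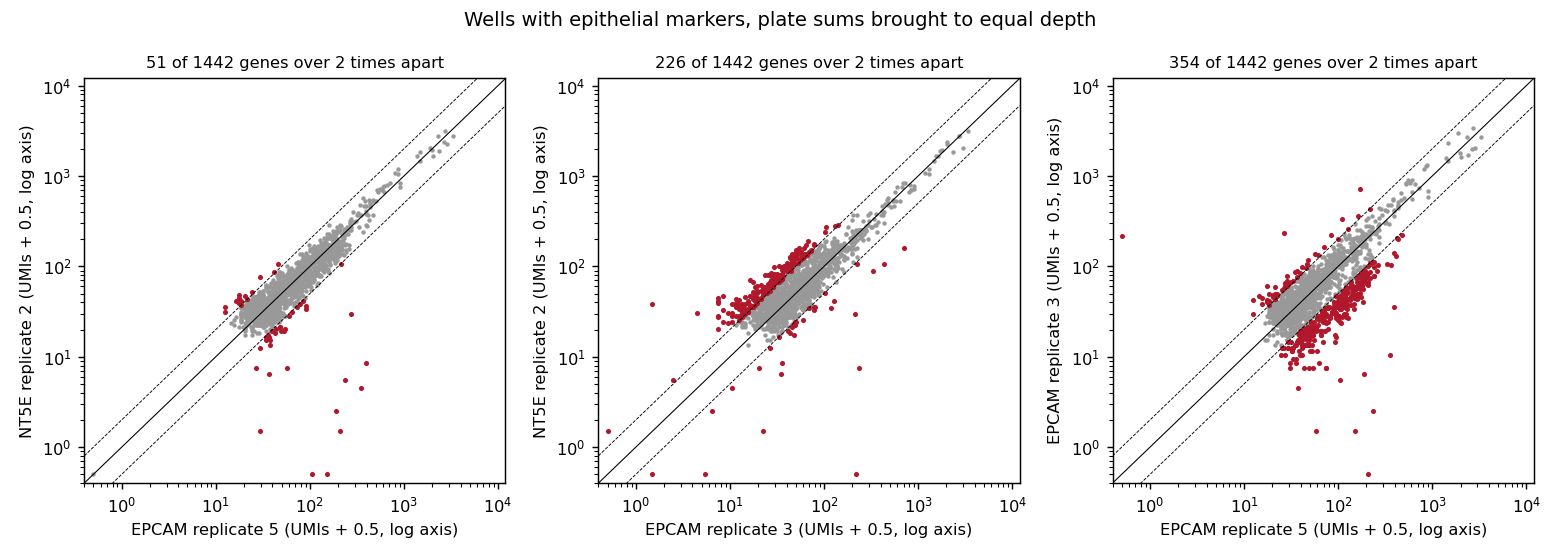
Each point is 1 of 1442 genes, with its UMIs in the epithelial wells of 2 plates at equal depth, on log axes, for the NT5E plate against EPCAM plates 5 and 3 and for EPCAM plate 3 against plate 5. Red points lie more than 2 times apart, beyond the dashed lines, and make up 3.54% of the genes between the NT5E plate and EPCAM plate 5, 15.7% between the NT5E plate and plate 3 and 24.5% between EPCAM plates 3 and 5.

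Gene groups of the villus epithelium were read in the fit without the plate labelled EPCAM 1, by how many members lay below or above both EPCAM plates 3 and 5. Over all 6286 genes tested the NT5E plate was below both in 24.5% and above both in 30.2%, and over the 5829 genes of the epithelial wells alone in 25% and 31.3%. No member of any group described here passed an adjusted p of 0.05 in edgeR in that fit, where 0 genes of the whole table did and 53 had an unadjusted p under 0.05, with 0 calls in DESeq2.

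Of the purine and nucleoside genes, 16 of 24 were tested, 7 of them below both EPCAM plates, the trio included, and 1 above both, with a median log2 difference of -0.37. In edgeR 2 had an unadjusted p under 0.05, *Nt5e* and *Ada*, both lower. The counts were the same in epithelial wells alone, 7 below and 1 above both. Summed over epithelial wells the group was at 41.3 UMIs per 10000 in the NT5E plate, 70.1 in EPCAM plate 3, 41.3 in plate 5 and 40.1 in PDGFRa singlet plate 2. In all kept wells, where PDGFRa singlet plate 3 can be added, the group was at 38.5 in the NT5E plate, 67.9 and 37.6 in EPCAM plates 3 and 5, and 38.2 and 52.2 in the singlet plates. With all plates its median was -0.11 and no member had an unadjusted p under 0.05. Among the members, *Enpp3*, an ectoenzyme that splits extracellular nucleotides, had 1.11 per 10000 in all kept wells against 2.47 and 1.19 in EPCAM plates 3 and 5. *Alpi*, the intestinal alkaline phosphatase that removes phosphate from nucleotides, had 5.37 against 8.33 and 5.31. *Pnp*, which splits inosine into base and sugar, had 6.82 against 7.70 and 6.34, and *Gda*, the guanine deaminase, 10.9 against 14.8 and 6.38, both inside the range of the EPCAM plates.

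The villus tip enterocyte genes, a list taken from the study that overlaps the purine genes in its first 3 members, gave 8 tested of 9, with 4 below both EPCAM plates, 0 above both and a median of -0.63, which was -0.16 with all plates. *Klf4*, a transcription factor of differentiated enterocytes, stood at 3.96 UMIs per 10000 in the NT5E plate and at 3.37, 5.52 and 2.18 in EPCAM plates 1, 3 and 5. *Fos*, an AP-1 subunit, stood at 3.67 against 0, 3.95 and 1.87, and *Creb3l3*, a membrane-bound transcription factor of lipid metabolism, at 3.38 against 0, 4.61 and 2.94. For these 3 genes the NT5E plate lay between EPCAM plates 3 and 5. *Jun*, another AP-1 subunit, differed by -1.07 ± 0.75 (SE) on the log2 scale without the plate labelled EPCAM 1. *Cdh1*, the epithelial cadherin, was at 1.32 against 0, 1.60 and 1.34, just below plate 5. The 4 members below both plates were thus the trio and *Cdh1*. Summed over epithelial wells the list was at 19.9 per 10000 in the NT5E plate, 42.8 in EPCAM plate 3, 21.4 in plate 5 and 20.02 in PDGFRa singlet plate 2. The trio, part of this list and of the purine list, was at 5.87, 24.1, 11.5 and 9.25 in the same order. The other members of each list thus summed higher in the NT5E plate than in EPCAM plate 5 and PDGFRa singlet plate 2. They summed lower there than in EPCAM plate 3. In all kept wells the villus tip list was at 18.6 in the NT5E plate and at 38.4 in PDGFRa singlet plate 3.

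**Figure D4:**
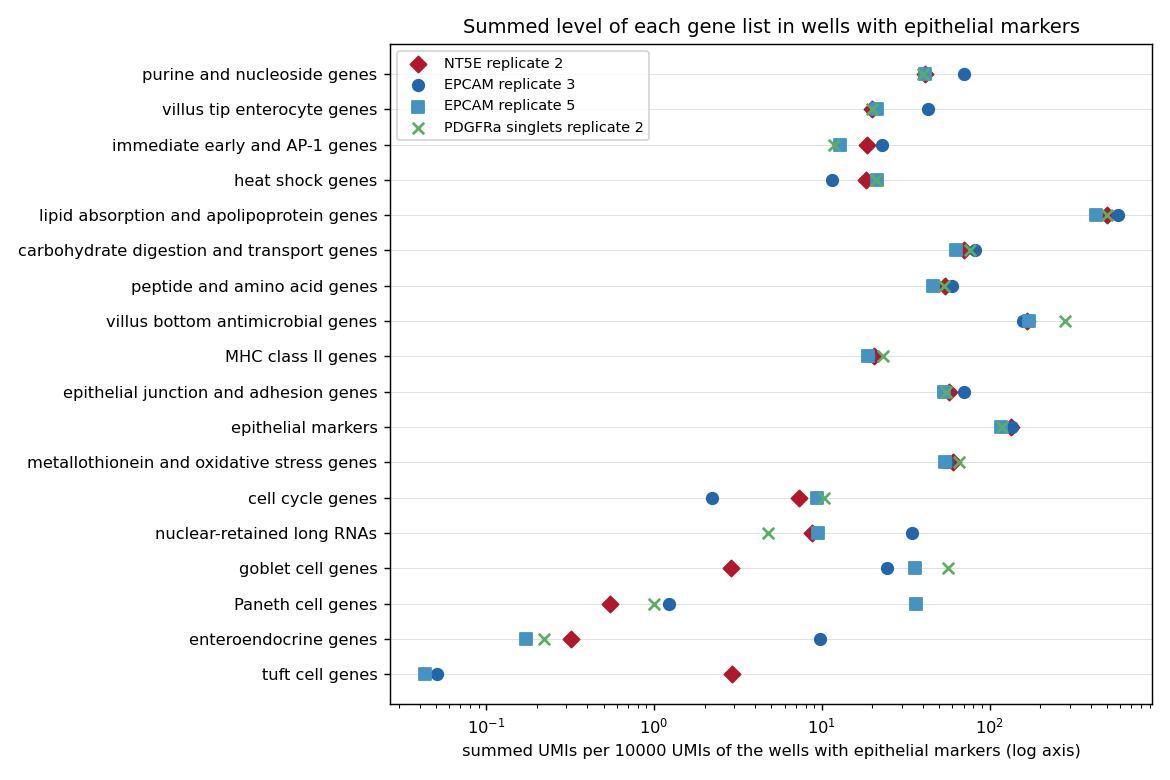
Summed UMIs per 10000 of each gene list in the epithelial wells of 4 plates, on a log axis, where a sum of 0 (tuft genes in PDGFRa singlet plate 2) has no mark. For the purine and villus tip lists the NT5E plate is close to EPCAM plate 5 and PDGFRa singlet plate 2, with EPCAM plate 3 above them. Both lists contain the trio, which is lower in the NT5E plate than in each other plate shown. The remaining members of each list sum higher in the NT5E plate than in EPCAM plate 5 and PDGFRa singlet plate 2.

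Members of the absorptive lists lay on both sides of the EPCAM plates. Of 22 lipid absorption and apolipoprotein genes tested, 4 were below both EPCAM plates and 3 above both (median -0.10, but 0.44 with all plates), of 12 carbohydrate digestion genes 4 and 3 (median -0.20, but 0.33), and of 18 peptide and amino acid genes 5 and 6 (median 0.02, and 0.51). *Apoa4* was at 81.7 per 10000 in the NT5E plate and at 124 and 71.7 in EPCAM plates 3 and 5, *Apoa1*, the main protein of HDL, at 122 against 139 and 105, and *Fabp2*, an intracellular fatty acid carrier, at 111 against 114 and 89.6. *Reg3g*, an antimicrobial lectin of lower villus enterocytes, was at 59.0 against 61.3 and 57.1, and its list of 10 tested genes gave 3 below and 2 above both plates (median -0.03, but 0.46 with all plates). Of 27 junction and adhesion genes 11 were below and 9 above both (median -0.09), of 10 epithelial markers 1 and 3 (median 0.03), of 6 MHC class II genes 2 and 1 (median 0.02), and of 16 metallothionein and oxidative stress genes 2 and 4 (median -0.04). With all plates these medians were 0.29, 0.59, 0.55 and 0.23, where the plate labelled EPCAM 1, with 0 epithelial wells, entered the EPCAM side.

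The counts of fast-response and dividing-cell genes came next. Of 13 immediate early and AP-1 genes tested, 1 was below and 6 above both EPCAM plates (median 0.14), and of 7 heat shock genes, which cell isolation can raise, 0 and 3 (median 0.26). Of 12 cell cycle genes 1 was below and 4 above both (median 0.36). With all plates the medians of these groups were 0.36, 0.49 and 0.62. Wells with at least 10 UMIs of cell cycle genes made up 9 of 126 in the NT5E plate (7.14%), 8 of 111 in EPCAM plate 5 (7.21%), 3 of 304 in plate 3 (0.987%) and 10 of 115 in PDGFRa singlet plate 2 (8.70%). *Mki67*, the proliferation marker, had 12 UMIs in 5 wells of the NT5E plate, 2 in 2 wells of EPCAM plate 3 and 11 in 6 wells of plate 5. Per 10000 UMIs the cell cycle genes summed to 7.32 in the epithelial wells of the NT5E plate and to 13.3 in its mesenchymal wells, against 2.20 and 9.37 in the epithelial wells of EPCAM plates 3 and 5. Few members of the remaining epithelial lists were counted. Of 2 stem cell and Wnt target genes 0 were below and 1 above both plates (median 0.66), of 4 EGF receptor and ligand genes 2 and 0 (median -0.69), of 6 BMP and Notch response genes 1 and 2 (median -0.08), and of 2 nuclear-retained long RNAs 1 and 0 (median -0.98). With all plates these medians were 0.85, -0.38, 0.26 and -0.61.

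Secretory cell genes were carried by single wells. Of 8 goblet cell genes tested, 7 were below both EPCAM plates, each by more than 2 times, against 2.56% of all genes, and 6 had an unadjusted p under 0.05, all lower in the NT5E plate (median -3.08). With all plates the median was -2.67, and 1 of the 8 had an unadjusted p under 0.05. In epithelial wells alone 7 of 8 were again below both by more than 2 times, against 2.52% of all genes. *Tff3* (chr17:31125306-31129646), the trefoil peptide of goblet mucus, had 45 UMIs in the NT5E plate, 4 in the plate labelled EPCAM 1, 576 in plate 3 and 272 in plate 5. The richest single well of each plate held 18, 4, 306 and 142 of these *Tff3* UMIs. *Zg16*, a mucus lectin, had 11, 5, 561 and 27 UMIs, *Fcgbp*, a mucus scaffold protein, had 6, 2, 78 and 36, and *Spink4*, a secreted peptide of goblet cells, had 9, 1, 67 and 394, of which 329 were in 1 well of EPCAM plate 5. The log2 difference of *Tff3* was -2.58 with all plates and -3.09 without the plate labelled EPCAM 1.

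The share of wells past a limit of 10 goblet list UMIs differed less than the UMIs themselves, and rested on few wells. Wells with at least 10 UMIs of the goblet list numbered 2 of 126 in the NT5E plate (1.59%, exact binomial 0.193 to 5.62), 4 of 304 in EPCAM plate 3 (1.32%, 0.360 to 3.33), 4 of 111 in plate 5 (3.604%, 0.990 to 8.97) and 4 of 115 in PDGFRa singlet plate 2 (3.48%). At a minimum of 20 UMIs these numbers were 1, 4, 3 and 4 (0.794%, 1.32%, 2.70% and 3.48%). The 2 wells of the NT5E plate held 49 list UMIs among 3406 and 16 among 7215, so a limit in raw UMIs passes wells with a small goblet share. The well richest in goblet list UMIs held 49 in the NT5E plate, and 728 and 525 in EPCAM plates 3 and 5. The well with 525 in plate 5 also held 762 UMIs of Paneth cell genes. Another well of plate 5, with 17 goblet list UMIs, held 42 of Paneth cell genes.

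Paneth cell genes summed to 21 UMIs in the NT5E plate and to 10, 73 and 849 in EPCAM plates 1, 3 and 5. Of the 849, 762 lay in 1 well, the same well that held 525 goblet list UMIs. Per 10000 UMIs the Paneth list was at 0.555 in the NT5E plate and at 3.75, 1.19 and 32.4 in these EPCAM plates. PDGFRa singlet plates 2 and 3 were at 1.00 and 0.222. Of the 5 Paneth genes tested, 5 were below both EPCAM plates (median -5.52, and -5.11 with all plates), and the alpha-defensin *Defa17* had 5, 5, 29 and 352 UMIs. By more than 2 times, 3 of the 5 were below both. In epithelial wells alone 4 of 5 were below both, 2 of them by more than 2 times. Enteroendocrine genes summed to 11 UMIs in the NT5E plate and 585 in EPCAM plate 3, where 1 well held 511 UMIs of *Gip*, the hormone of K cells, and *Gip* had 0 in the NT5E plate. EPCAM plates 1 and 5 summed to 0 and 6 enteroendocrine UMIs, and PDGFRa singlet plates 2 and 3 to 6 and 2. Per 10000 UMIs the list was at 0.291 in the NT5E plate, 9.56 in EPCAM plate 3 and 0.229 in plate 5. The singlet plates 2 and 3 were at 0.208 and 0.222, so EPCAM plate 3 alone stood above the NT5E plate. Of 2 enteroendocrine genes tested, 1 was below both plates (median -5.27, and -4.73 with all plates).

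**Figure D5:**
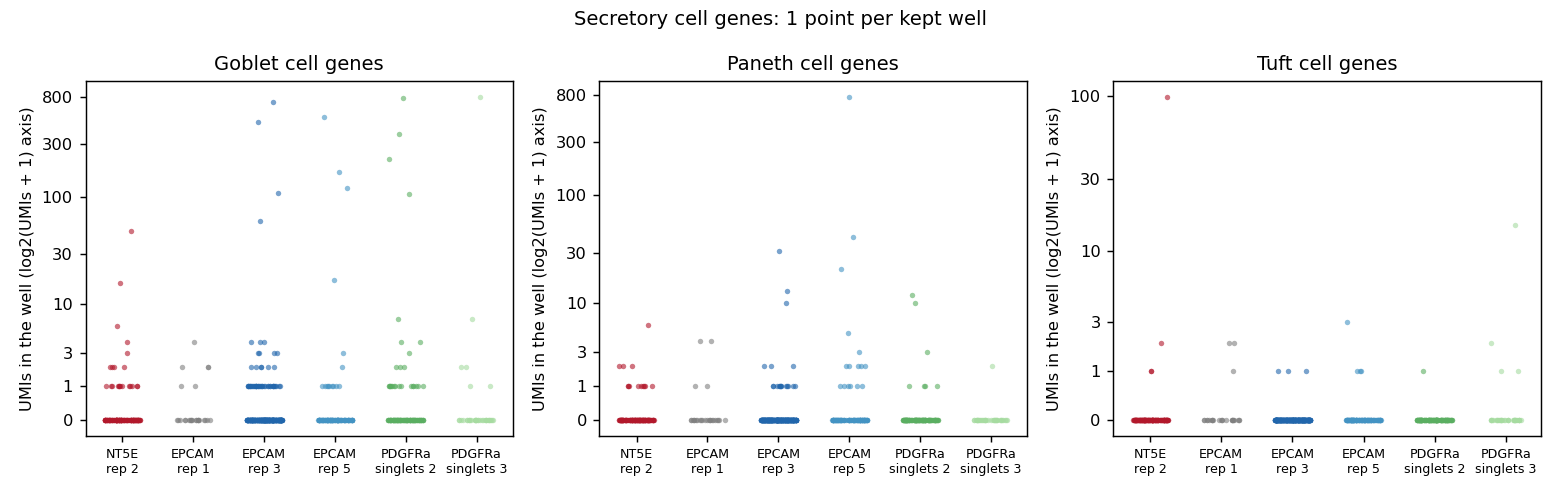
UMIs of the goblet, Paneth and tuft cell lists in each kept well (a point) of each plate, on a log2(UMIs + 1) axis. The NT5E plate has 1 tuft well with 98 list UMIs, and the richest tuft well of PDGFRa singlet plate 3 has 15. The well richest in goblet UMIs has 49 in the NT5E plate, against 728 and 525 in EPCAM plates 3 and 5. The well with 525 is also the plate 5 well with 762 Paneth UMIs.

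Tuft cell genes went the other way through 1 well. Tuft cells are chemosensory epithelial cells. Per 10000 UMIs the tuft list was at 2.70 in the NT5E plate and at 1.87, 0.049 and 0.229 in EPCAM plates 1, 3 and 5. PDGFRa singlet plates 2 and 3 were at 0.0346 and 2.11, and 1 well of singlet plate 3 held 15 of its 19 list UMIs. The NT5E plate held 102 tuft list UMIs, and 98 of them lay in 1 well of 4231 UMIs and 1854 genes. That well had all 28 UMIs of *Sh2d6*, an adaptor protein, all 14 of *Rgs13*, a regulator of G protein signalling, 9 of 10 of *Avil*, an actin-binding protein, and 7 of 8 of *Dclk1*, the usual tuft cell marker. It also held 53 of the 81 UMIs of *Krt18* in the plate, 4 of *Epcam* and 0 of *Dcn*. *Sh2d6* gave a log2 difference of 7.57 at an adjusted p of 0.0647 in edgeR, the smallest of the whole table, and it was above both EPCAM plates by more than 2 times, as were 1.56% of all genes and, in epithelial wells alone, 1.29%. Without that well *Sh2d6* had no UMI in the NT5E plate.

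One mitochondrial gene, singled out after its values were seen, stood higher across the NT5E plate rather than in single wells. *mt-Atp8*, a subunit of the mitochondrial ATP synthase, had 156 UMIs in 69 of 126 wells (54.8%) of the NT5E plate, 0, 5 and 10 UMIs in EPCAM plates 1, 3 and 5, and 1 and 4 in PDGFRa singlet plates 2 and 3. It was also present in 12 of the 26 mesenchymal wells of the NT5E plate. The log2 difference of *mt-Atp8* was 4.45 with all plates and 4.28 without the plate labelled EPCAM 1, where edgeR gave an adjusted p of 0.0815. The gene (chrM:7766-7969) shares 43 bases with its neighbour *mt-Atp6* (chrM:7927-8607) on the same strand, and *mt-Atp6*, another subunit of the enzyme, had 0 UMIs in the NT5E plate but 349 UMIs in 84 of 115 wells of PDGFRa singlet plate 2, so each of these genes was counted mostly in 1 plate. Over the 12 mitochondrial genes tested without the plate labelled EPCAM 1, 5 were below and 2 above both EPCAM plates (median -0.21, but 0.26 with all plates). *mt-Cytb*, a subunit of respiratory complex III, was at 57.5 per 10000 in the NT5E plate and at 6.75, 45.6 and 70.4 in EPCAM plates 1, 3 and 5.

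The mesenchymal side of the NT5E plate was 26 wells, set beside 24, 11 and 24 wells of EPCAM plates 1, 3 and 5. These wells summed to 29969 UMIs in the NT5E plate and to 23531, 9689 and 22134 UMIs in EPCAM plates 1, 3 and 5. The gene counts in this paragraph are not scaled to that depth, so a higher count need not be a higher level. edgeR tested 785 genes in these wells together with the double wells and called 0, with 5 at an unadjusted p under 0.05 (0.127% higher and 0.51% lower). DESeq2 was not run on these wells. *Col1a1*, a chain of fibrillar collagen, had 129 UMIs there against 64, 10 and 60, and *Sparc*, a matrix protein also made by endothelium, had 186 against 241, 70 and 143. *Sparc* matters for EPCAM plate 3, whose 11 wells held 12 UMIs of *Pecam1*, an endothelial adhesion protein, which was at 0 in the mesenchymal wells of the other 3 plates. *Wnt5a*, a Wnt ligand of villus tip telocytes, had 15 UMIs in 6 of the 26 wells of the NT5E plate and 0, 0 and 3 UMIs in EPCAM plates 1, 3 and 5. Of the other villus tip telocyte markers, 4 lay inside or below the counts of the EPCAM plates. *Mfap5*, a microfibril protein, had 2 UMIs against 12, 3 and 9, *Igfbp6*, a binding protein of insulin-like growth factors, had 5 against 15, 1 and 13, *Ly6c1*, a surface antigen shared with endothelium, had 3 against 2, 15 and 8, and *Tppp3*, a tubulin-binding protein, had 8 against 9, 5 and 12. The log2 differences of *Ly6a* and *Fbn1* in mesenchymal wells were -0.38 ± 0.63 (SE) and -0.18 ± 0.64. *Angptl4* differed by 1.10 ± 1.13 over all kept wells of the 4 plates. Over all kept wells without the plate labelled EPCAM 1, 6 of the 10 listed markers were tested, 2 below and 2 above both EPCAM plates. *Grem1*, a BMP antagonist of the crypt stroma, had 4 against 12, 0 and 3, and *Sfrp1*, a secreted Wnt antagonist, had 16 against 67, 9 and 7.

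The markers of stromal subtypes did not separate the NT5E plate as one subtype. Summed per 10000 UMIs of mesenchymal wells, villus tip telocyte markers were at 28.7 in the NT5E plate and at 27.2, 53.7 and 50.6 in EPCAM plates 1, 3 and 5. Crypt telocyte markers were at 20.7 against 55.7, 26.8 and 28.0, myofibroblast markers at 54.7 against 14.5, 4.13 and 51.5, and enteric mesothelial fibroblast markers at 10.7 against 24.7, 6.19 and 9.94. The level of general mesenchymal markers was 391 against 507, 206 and 363. Immune markers, the genes of intraepithelial lymphocytes among them, had 0 UMIs in the NT5E plate and 4, 1 and 6 in the EPCAM plates, and endothelial markers had 13 UMIs against 24, 74 and 24.

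In the epithelium of the toxin experiment the trio could be tested across mice. Libraries held 748458 to 4210158 UMIs, and edgeR with batch as a term called 30 of 8986 genes lower (0.334%) and 2 higher (0.0223%) after DT. In bulk tissue, fewer cells of a type and less RNA per cell cannot be told apart. *Nt5e* was at 14.3, 4.84, 18.3 and 5.73 CPM (UMIs scaled to a common library total) in the 4 DT mice and at 73.9, 49.4, 104 and 37.9 in the 4 mock mice. Every DT mouse was below every mock mouse, and *Nt5e* fell by 2.66 ± 0.44 on the log2 scale (adjusted p = 0.0381 in edgeR, n = 4). *Ada* was at 150, 87.5, 200 and 160 CPM after DT and at 591, 576, 616 and 568 in mock, again without overlap, and fell by 2.06 ± 0.24 (adjusted p = 0.0106 in edgeR). *Slc28a2* was at 25.3, 16.0, 72.5 and 30.4 CPM after DT and at 133, 64.1, 114 and 94.4 in mock. One DT mouse overlapped the mock range in *Slc28a2*, and its log2 difference of -1.61 ± 0.37 did not pass the test (adjusted p = 0.125 in edgeR).

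These calls depended on the terms of the fit. With the replicate number as a block, *Nt5e* kept an adjusted p of 0.0113, *Ada* moved to 0.0624 and *Slc28a2* to 0.102 in edgeR. With 1 mouse left out, *Nt5e* passed the threshold no longer without mock mouse 1, 2 or 3 or without DT mouse 2 or 4 (log2 differences of -2.70 to -2.30, adjusted p of 0.0505 to 0.168), and *Slc28a2* passed it without DT mouse 3 (-2.13, adjusted p = 0.0391). *Sh2d6*, of the tuft well of the NT5E plate, fell as well in edgeR, from 9.90 ± 2.45 CPM in mock to 1.17 ± 0.70 CPM after DT (SD, n = 4, log2 -3.31 ± 0.49, adjusted p = 0.0288). The call of *Sh2d6* was lost under the block (adjusted p = 0.0624) and without DT mouse 2 or 3 (0.0657 and 0.122). *Tff3* differed by -0.17 ± 0.39 and *Klf4* by -0.75 ± 0.21, neither past the test (adjusted p of 0.849 and 0.190 in edgeR).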

How the data were processed

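Jejunal cells were sorted into 384-well plates and sequenced by MARS-seq, and epithelium of DT and mock mice by mcSCRB-seq. Counts were those deposited by the authors, who had run zUMIs against GRCm38, and were raw UMIs of every gene in all wells. Their subtraction of background from empty wells was not repeated, since those wells were not identified here. Wells were assigned by plate title, 352 wells of a plate matching no sample were not used, and no doublet caller was run because the plate titles named doublets. Of the other PDGFRa singlet plates of this mouse and sort, plate 4 had 2 wells and 0 kept, and plate 1 was not analysed here.

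Kept wells had 400 to 8000 UMIs and at least 250 genes. UMIs were summed per plate and compared with edgeR 4.0.16 (TMM, robust quasi-likelihood test, Benjamini-Hochberg adjustment) for genes with at least 20 UMIs over the 4 plates, in R 4.3.3. DESeq2 1.42.0 was an alternative. Fits of epithelial or of mesenchymal wells also took the double wells, whereas well counts and levels per 10000 UMIs left them out. Members below or above both EPCAM plates in epithelial wells were counted from UMIs of that fit over totals without the double wells. The script was tested on simulated data. Intervals were exact Poisson or Clopper-Pearson at 95%, a count of 0 allowed 3 counts, and levels are per 10000 UMIs. Shares of wells after thinning are expected values at 400 UMIs. The DT fit used genes above 1e-05 of UMIs in at least 2 samples, with the batch of the study's sample list as a term. DT and mock samples of the same number deviated from their group means together, with correlations of 0.608, 0.413, 0.656 and 0.584, each over 0.1. Batch was not removed first, and samples of the same number share a batch. These correlations therefore cannot tell pairing from batch. The replicate block, which treats such samples as pairs, was an alternative setting. The replicates of the DT experiment were separate mice.

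The members and the 29 gene lists were chosen with earlier results of these data known, and the 4 stromal subtype lists after counts were seen. Named genes were *Nt5e*, *Ada*, *Slc28a2*, *Epcam*, *Pdgfra*, members of described lists, and up to 12 genes in each direction past an adjusted p of 0.05 with at least 100 UMIs and outside the range of the EPCAM plates. No gene met the last part. One gene is not reported here and stays in the counts. *mt-Atp8*, a list member, and *mt-Atp6* and *Malat1* beside it were singled out after their values were seen. Alternatives were another normalization, test, filter, plate set and depth. Promoter sequences came from RefSeq on GRCm38.p6, for 2 of the 3 trio genes.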

Additional observations from a re-analysis of the deposited data

How the results depend on the processing

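The count of genes differing between the NT5E plate and the EPCAM plates was 0 with each EPCAM plate left out in turn (lowest 0, highest 0), under DESeq2, its size factors, a non-robust fit, other filters on low counts, a looser well filter, thinning and without mitochondrial genes. It rose to 2 with wells of at least 1000 UMIs (*Sh2d6* among them), to 4 in wells with epithelial markers and no marker of other cells (*Sh2d6*, *mt-Atp8* and *Gm5559* among them, smallest adjusted p 6.34e-05 in edgeR), and to 17 (5 higher, 12 lower) against 2 EPCAM doublet plates of another mouse, which held 0 wells with mesenchymal markers only. *Pdgfra*, at -0.05 with all plates, turned to 0.41 with no filter, 1.37 without EPCAM plate 1, 1.26 with wells of 1000 UMIs, 0.73 with thinned wells and 7.23 against the other mouse. In 3 settings chosen after seeing the data it was 1.22 in mesenchymal wells and 1.39 without the tuft well and EPCAM plate 1, and *Epcam* was -0.026 in epithelial wells and -0.045 without the tuft well and EPCAM plate 1. *Epcam*, at 0.47 with all plates, was -0.031 in the stricter epithelial wells. With 1 EPCAM plate left out, *Epcam* lay between -0.05 (without plate 1) and 1.01, *Pdgfra* between -0.95 and 1.37 and *Slc28a2* between -1.40 and 0.32 (without plate 3). *Nt5e* stayed between -5.44 and -2.17 and *Ada* between -2.78 and -0.06. No paired analysis was possible between the gates because the NT5E plate shares no replicate number with the EPCAM plates. In the DT experiment the 32 calls became 1 without the batch term, 3 with the replicate block, 159 in DESeq2 and 635 with no filter, and 3 to 41 with 1 mouse left out. With no batch term the adjusted p of *Nt5e* was 0.219 and of *Ada* 0.135 in edgeR, and DESeq2 gave 0.00317 for *Slc28a2*. The cause of these shifts was not tested. The 26677 UMIs of EPCAM plate 1 and the 3 UMIs of *Nt5e* in the NT5E plate limit what the plates can show.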

Other observations

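PDGFRa singlet plate 3, which enters no test, had 38 kept wells, of which 26 were epithelial and 12 mesenchymal, and its levels of *Ada* (19.9 UMIs per 10000) and *Nt5e* (2.78) were above those of the NT5E plate. The 2 EPCAM doublet plates of the other mouse had the trio in 6 of 13 and 3 of 103 kept wells, at 43.6 and 0.543 UMIs per 10000. *Gm5559*, chosen after its values were seen, had 76 UMIs in 50 wells of the NT5E plate and 49 in 35 wells of PDGFRa singlet plate 2, against 0, 8 and 1 UMIs in EPCAM plates 1, 3 and 5.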
